A study of Homo sapiens with 6 samples.

Results

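Of the genes of iron-sulfur cluster assembly, 9 (NFS1, LYRM4, ISCU, HSCB, GLRX5, ISCA1, ISCA2, CIAO1 and CIAO2B) were followed in human lymphoma cells given the ribonucleotide reductase inhibitor 3-AP. The genes were taken by symbol, older symbols included (FAM96B for CIAO2B), from the probe annotation of Illumina HumanHT-12 bead arrays, and all 9 were found, with 14 of the 47323 probes. All 14 probes passed the filter on dim probes, which left 14627 features (genes or unnamed probes) in all. The cells were the established primary effusion lymphoma lines BCP1, BCBL1 and BC1, which grow from a B cell lymphoma that carries the Kaposi sarcoma herpesvirus. One culture of each line received vehicle control and 1 received 3-AP at 2.5 µM, both for 48 h, which gave 6 arrays of total RNA, 3 per group. No other agent or genotype was used, and all cells were used at low passage.

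Iron-sulfur clusters are cofactors of iron and sulfide that carry electrons, bind substrates or hold a protein in shape. They are first built in mitochondria, where the cysteine desulfurase NFS1, with its small partner LYRM4, delivers sulfur to the scaffold ISCU. The co-chaperone HSCB then helps to pass the cluster to the glutaredoxin GLRX5, and ISCA1 and ISCA2 act in building the larger clusters of mitochondrial enzymes. In the cytosol, CIAO1 and CIAO2B form with MMS19 a complex that inserts clusters into proteins such as DNA polymerases and helicases. The compound 3-AP, also called triapine, binds iron, and its iron complex acts on the small subunit of ribonucleotide reductase, the enzyme that makes DNA precursors.

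Between 37 and 39.2% of probes were detected on the 4 arrays of BCBL1 and BC1. On the BCP1 arrays, which lack detection p-values of their own, the top 38.12% of signals counted as detected. A marker with several probes was read from the one detected on most arrays. The 6 plasma cell markers IRF4, PRDM1, SDC1, CD38, XBP1 and TNFRSF17 were detected on all 6 arrays. None of the 4 mature B cell markers with a probe, of the 4 T and NK cell markers or of the 4 myeloid markers was detected on all 6. Among them, CD79A and CD2 were each detected on 4 arrays, CD14 on 2, and MS4A1, CD22 and CSF1R on 1, and the rest on none. The BCP1 and BCBL1 arrays were very alike. The vehicle arrays of these lines correlated at 0.995 over probes and differed by at least 2-fold in 17 features, fewer than the 67 that separated vehicle from 3-AP within BCP1. BC1 vehicle differed from BCP1 vehicle by at least 2-fold in 872 features. Whether BCP1 and BCBL1 count as separate lines in these data was not tested, so values without each line stand beside the calls of 3-AP against vehicle below. Leaving out BC1 compares those 2 like lines alone, and 26.5% of all features then passed the test of 3-AP described below, against 7.86% over the 3 lines. In bulk RNA, fewer cells of a type and less RNA per cell cannot be told apart.

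With 3-AP, no gene of the 9, each read from its brightest probe, passed the test over the 3 lines. The test was limma with cell line as a block (Benjamini-Hochberg adjusted p under 0.05 over 14627 features). Of all features, 7.86% passed, 599 higher (4.1%) and 551 lower (3.77%). On the log2 scale the mean change was positive for 4 of the genes and negative for 5, with a median of -0.01 against 0 over all features. Unadjusted p was under 0.05 for 3 of the 9, ISCA2, LYRM4 and ISCU, and for 27.1% of all features. The change had the same sign in all 3 lines for 6 of the 9 genes, and for 49.4% of all features. The labels give 1 culture per line and condition. These p-values thus rest on the spread between 3 pairs and on spread borrowed from all features (2 residual and 5.47 prior degrees of freedom). A change within 1 line is 1 array against 1, with no replicate check.

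**Figure D1:**
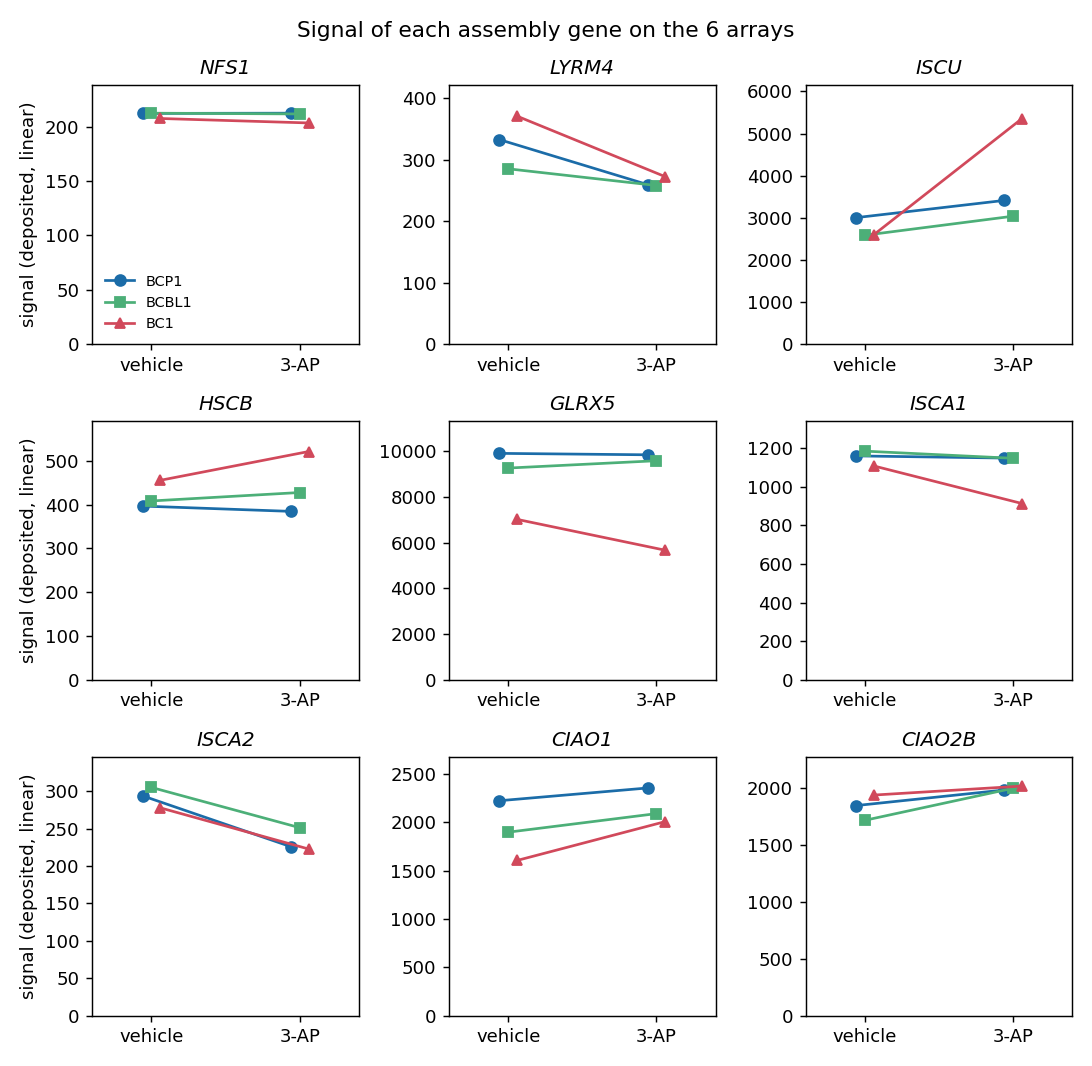
Signal of the 9 genes on the 6 arrays, as deposited on a linear scale that starts at 0. Each line joins the vehicle and the 3-AP array of 1 cell line, 1 array each, for the probe that stands for the gene. ISCU in BC1 goes from 2596 to 5356, and LYRM4 and ISCA2 are lower with 3-AP in all 3 lines.

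The promoters of ISCU, ISCA2 and LYRM4 are shown because these genes had the smallest p of the 9. Each is a RefSeq window of 300 bases on GRCh38.p14, most of them ahead of the gene's start, written on the gene's strand. Capitals mark matches on either strand to the letters of 4 motifs, the E-box CACGTG, the CCAAT box, the GC box GGGCGG and the NRF1 core (GCGC, any base, then TGCGC). Overlapping matches were each counted.
ISCU, chr12:108562346-108562645, plus strand: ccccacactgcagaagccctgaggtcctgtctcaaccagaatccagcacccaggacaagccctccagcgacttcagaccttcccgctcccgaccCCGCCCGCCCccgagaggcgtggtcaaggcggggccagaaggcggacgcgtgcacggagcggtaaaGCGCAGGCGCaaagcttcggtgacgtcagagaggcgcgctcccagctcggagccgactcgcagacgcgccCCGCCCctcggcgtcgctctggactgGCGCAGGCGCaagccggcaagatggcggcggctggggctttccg
ISCA2, chr14:74493515-74493814, plus strand: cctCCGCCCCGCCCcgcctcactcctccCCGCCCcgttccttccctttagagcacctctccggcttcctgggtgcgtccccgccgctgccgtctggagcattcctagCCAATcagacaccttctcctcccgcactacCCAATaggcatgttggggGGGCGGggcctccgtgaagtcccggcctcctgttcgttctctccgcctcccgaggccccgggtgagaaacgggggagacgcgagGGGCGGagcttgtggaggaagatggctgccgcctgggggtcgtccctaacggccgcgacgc
LYRM4, chr6:5260901-5261200, minus strand: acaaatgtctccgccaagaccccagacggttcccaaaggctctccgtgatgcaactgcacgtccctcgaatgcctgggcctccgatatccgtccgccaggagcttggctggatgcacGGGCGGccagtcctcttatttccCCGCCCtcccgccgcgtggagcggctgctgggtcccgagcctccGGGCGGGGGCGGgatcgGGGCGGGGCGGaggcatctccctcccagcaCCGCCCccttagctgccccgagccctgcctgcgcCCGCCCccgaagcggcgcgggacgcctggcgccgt

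The ISCU window held 2 NRF1 cores and 3 GC boxes. The ISCA2 window held 2 CCAAT boxes and 5 GC boxes, and the LYRM4 window held 8 GC boxes. Among the 9 genes, ISCU alone had the NRF1 core, which 5.78% of 35116 RefSeq windows of this length hold. CCAAT was found in 4 of the 9 (GLRX5, HSCB, ISCA1 and ISCA2) against 34.6% of windows. The GC box was found in 8 of the 9, all but CIAO2B, against 45% of windows, and CACGTG in 0 of the 9 against 7.26%. G and C made up 58.7 to 72.3% of the windows of the 9 genes, against a median of 58.7% over all windows. A gene with several windows, such as HSCB, counted if any of them held the motif, while the shares are per window. A match is a match of letters and no measure of binding.

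For NFS1, the sulfur donor, the 2 probes differed. The probe with the higher signal, which stands for the gene, read 212.5 with vehicle and 212.7 with 3-AP in BCP1. It read 212.7 and 212 in BCBL1, and 208 and 204 in BC1. All 6 arrays lay close together, and the mean log2 change was -0.01 ± 0.08 (SE, n = 3 pairs, limma adjusted p = 0.951). Its 95% interval of -0.20 to 0.18 is for this dim probe alone, with no background subtracted, and does not bound the change of the gene. The mean of the kept NFS1 probes changed by -0.21 (limma adjusted p = 0.149).

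The second NFS1 probe was lower with 3-AP on each pair of arrays. Its signal went from 208 to 162 in BCP1, from 212 to 159.6 in BCBL1 and from 204 to 151 in BC1. The 3-AP arrays all lay below the vehicle arrays, close to the background. This probe fell by 0.40 ± 0.08 on the log2 scale (limma, adjusted p = 0.0316 over the 17988 kept probes tested one by one, of which 7.73% passed). It was not above background on the BCBL1 3-AP array (detection p-value of 0.0922 in the deposited table) and near the limit of 0.05 on the BC1 3-AP array (0.0416). The call was lost without BCP1 (limma adjusted p = 0.138) and without BCBL1 (0.16). It held without BC1 (0.00064), where the spread is pooled over all features. After background subtraction the change was -1.2 (0.0494). Which transcripts each probe reads is not given in the sources used here.

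LYRM4, the small protein that stabilises NFS1, read 333 with vehicle and 259.5 with 3-AP in BCP1. The values were 285 and 258 in BCBL1, and 371 and 272 in BC1. Every 3-AP array lay below every vehicle array, as was so for 17.6% of all features in 1 direction or the other and for 4 of the 9 genes. The mean log2 change was -0.32 ± 0.09 (95% interval -0.54 to -0.10, limma adjusted p = 0.0809), or 1.25-fold lower. The adjusted p was 0.307 without BCP1, 0.147 without BCBL1 and 0.0276 without BC1. After background subtraction the change was -0.53 (adjusted p = 0.128).

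ISCU, the scaffold on which the cluster is first put together, had the largest mean change of the 9. Its signal with vehicle and with 3-AP was 3001 and 3411 in BCP1, and 2584 and 3036 in BCBL1. In BC1 it was 2596 and 5356. The 3-AP value was thus 1.14-fold the vehicle value in BCP1, 1.18-fold in BCBL1 and 2.06-fold in BC1. Of all features, 1.33% were at least 2-fold higher with 3-AP in BC1. The 3 vehicle arrays lay below the 3 3-AP arrays with no overlap, and BC1 with 3-AP stood well above the other 5. The mean log2 change was 0.49 ± 0.17 (95% interval 0.10 to 0.87, limma adjusted p = 0.113), which did not pass. It was 0.64 without BCP1 (adjusted p = 0.16), 0.61 without BCBL1 (0.0893) and 0.21 without BC1 (0.0767). A mean change of at least this size, up or down, was seen in 5.65% of all features.

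The second ISCU probe gave the same order of lines. Its signal went from 601 to 726 in BCP1, from 522 to 649 in BCBL1 and from 536 to 943 in BC1. The folds were 1.21, 1.24 and 1.76. As a feature of its own it had a mean log2 change of 0.47 ± 0.12 (limma adjusted p = 0.0584). The change was 0.56 without BCP1 (0.12), 0.54 without BCBL1 (0.101) and 0.29 without BC1 (0.0128).

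ISCU had its largest difference between the groups in BC1. The log2 change in BC1 exceeded the mean of BCP1 and BCBL1 by 0.84 ± 0.16, from 1.04 in BC1 and 0.21 in the others (limma on the 3 within-line changes, adjusted p = 8.92e-06). The second probe gave a difference of 0.52 ± 0.17 (adjusted p = 0.0177 over all kept probes, of which 13.2% passed). This test has 1 residual degree of freedom, the gap between BCP1 and BCBL1, which was 0.05 for ISCU. The spread is otherwise borrowed from all features, with 885 prior degrees of freedom. The BC1 side is 1 pair of arrays, so the p does not hold the spread between BC1 cultures. It called 15.4% of all features (7.5% as higher in BC1) and 1 of the 9 genes. After background subtraction the ISCU difference was 0.86 (adjusted p = 0.231), and 0 features passed, with 2607 at an unadjusted p under 0.05. A positive log2 change in BC1 at least as large as that of ISCU was seen in 165 features, or 1.13%.

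**Figure D2:**
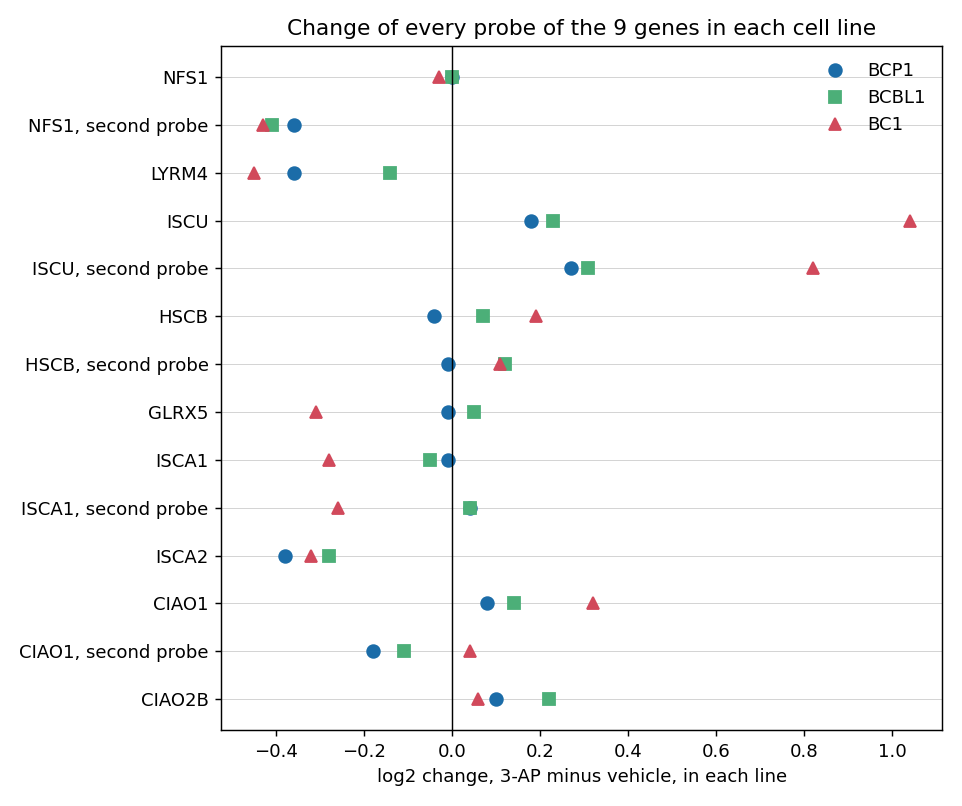
Log2 change, 3-AP minus vehicle, of all 14 probes of the 9 genes, with 1 point per cell line and each point 1 array against 1. Both ISCU probes have BC1 far to the right, at 1.04 and 0.82, while the second NFS1 probe lies at -0.36 to -0.43 and the first within 0.03 of no change.

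Of the genes that hand the new cluster on, HSCB had overlapping groups. The co-chaperone read 397 and 385 in BCP1, 408.5 and 428 in BCBL1, and 456 and 521 in BC1, vehicle first. BC1 was highest in both groups. The mean log2 change was 0.07 ± 0.09 (95% interval -0.14 to 0.28, limma adjusted p = 0.653), and the second probe gave 0.07 as well.

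GLRX5, the glutaredoxin that receives the cluster, read 9899 with vehicle and 9836.5 with 3-AP in BCP1. It read 9257 and 9577 in BCBL1, and 7014 and 5664 in BC1. The groups overlapped, and both BC1 arrays lay below the other 4. On average the log2 change was -0.09 ± 0.10 (95% interval -0.32 to 0.14, limma adjusted p = 0.614), with -0.31 in BC1 and -0.01 and 0.05 in the other lines. The difference of -0.33 between BC1 and the other lines did not pass (limma adjusted p = 0.156).

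Among the late-acting mitochondrial proteins, ISCA2 had the smallest p of the 9 genes. Its signal went from 294 to 226 in BCP1, from 305 to 251 in BCBL1 and from 278 to 223 in BC1. The groups did not overlap, and the values of the 3 lines were close together, with log2 changes of -0.38, -0.28 and -0.32. The mean was -0.33 ± 0.08 (95% interval -0.52 to -0.13, limma adjusted p = 0.0562), or 1.25-fold lower, just short of the threshold. The adjusted p was 0.264 without BCP1, 0.21 without BCBL1 and 0.00255 without BC1. It was 0.0434 without a filter on dim probes, 0.0413 where the line was a random block, 0.225 with BCP1 and BCBL1 averaged and 0.345 with no block. After background subtraction the change was -0.62 (adjusted p = 0.0905).

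ISCA1, the partner of ISCA2, read 1159.5 and 1148 in BCP1, 1184 and 1147 in BCBL1, and 1107.5 and 913 in BC1, vehicle first. The groups overlapped, with the lowest value in BC1 with 3-AP. Its mean log2 change was -0.11 ± 0.09 (95% interval -0.33 to 0.10, limma adjusted p = 0.483). On the second probe BCP1 and BCBL1 each gave a log2 change of 0.04, and BC1 gave -0.26.

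The 5 genes whose 3 within-line changes lay nearest to those of ISCA2 among 10455 genes were ALYREF, CCNL1, ITGA8, CAND1 and KIF5B, at distances of 0.031 to 0.048 on the log2 scale. ITGA8 (limma adjusted p = 0.0483) and CAND1 (0.048) fell, while ALYREF (0.0515), CCNL1 (0.0568) and KIF5B (0.068) did not pass. Both calls were lost without BCP1 (0.227 and 0.225), without BCBL1 (0.187 and 0.202) and with background subtraction (0.0867 and 0.148). Both were also lost with no block (0.88 and 0.758) and with line as a random block (0.28 and 0.141). In all, ITGA8 lost its call under 7 of 13 alternatives and CAND1 under 8 of 14. Both calls held without BC1 (0.00183 and 0.00147). Likeness over 3 lines with 1 array pair each is a description.

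CIAO1, a scaffold of the cytosolic targeting complex, was higher with 3-AP on its brighter probe in each line. The signals were 2223 and 2354.5 in BCP1, 1897 and 2089 in BCBL1, and 1605 and 2007 in BC1, vehicle first. The groups overlapped, with BC1 lowest and BCP1 highest in each. The mean log2 change was 0.18 ± 0.09 (95% interval -0.03 to 0.39, limma adjusted p = 0.244). The second probe gave values of the other sign in BCP1 (-0.18) and BCBL1 (-0.11) and 0.04 in BC1, with a mean of -0.08 ± 0.09 (adjusted p = 0.602).

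CIAO2B, which forms that complex with CIAO1 and MMS19, read 1848.5 and 1986 in BCP1, 1719 and 2001 in BCBL1, and 1941 and 2020.2 in BC1, vehicle first. The 3-AP arrays lay above all vehicle arrays. The change was small, with a mean of 0.13 ± 0.09 on the log2 scale (95% interval -0.07 to 0.33, limma adjusted p = 0.388).

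Levels were then compared between the lines after quantile normalization over the 6 arrays, with a moderated F test in limma. The model held line and agent, and each line had 1 array per agent. The p thus does not hold the spread between cultures of a line given the same agent. GLRX5 alone of the 9 genes passed, while 28.5% of all features did. Its log2 level was 13.24 ± 0.02 (SD over the vehicle and the 3-AP array, n = 2) in BCP1, 13.24 ± 0.01 in BCBL1 and 12.63 ± 0.23 in BC1. BCP1 and BCBL1 were each 1.53-fold higher than BC1 (limma F test adjusted p = 0.0105), a log2 difference of 0.61 ± 0.12, and their own difference was 0 ± 0.12. After background subtraction the difference was 0.62 (adjusted p = 0.0733).

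None of the other 8 genes passed. HSCB came nearest, at 8.58 ± 0.03 in BCP1, 8.72 ± 0.05 in BCBL1 and 8.93 ± 0.13 in BC1 (limma F test adjusted p = 0.107), and its BCP1 against BC1 contrast taken alone was at 0.0482. CIAO1 had its lowest level in BC1, at 11.11 ± 0.06, 11.02 ± 0.10 and 10.81 ± 0.21 (adjusted p = 0.153). For LYRM4, ISCA1, ISCU, ISCA2, CIAO2B and NFS1 the adjusted p ran from 0.208 to 0.926. The ISCU level in BC1 had an SD of 0.73, the widest of the 9. After this normalization its vehicle array was the lowest of the 6 and its 3-AP array the highest.

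**Figure D3:**
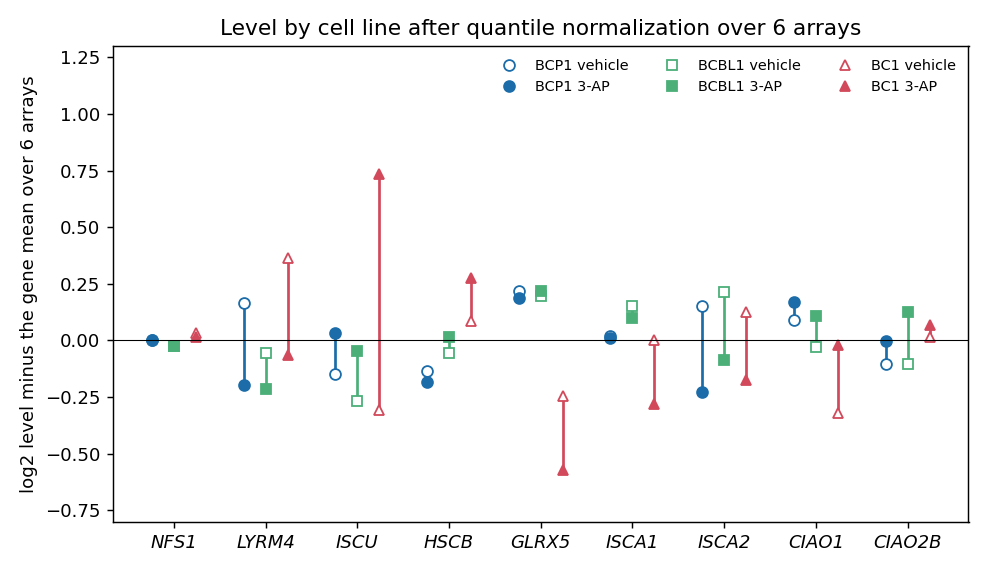
Log2 level of the 9 genes on each array after quantile normalization, minus the gene's own mean over the 6 arrays. Open symbols are vehicle, filled ones 3-AP, and a bar joins the pair of a line. Both GLRX5 values of BC1 lie below those of the other lines, and ISCU in BC1 spans the widest range.

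The rest of the pathway and the proteins that need clusters were read from 4 lists of 64 genes, of which 57 had a named probe and 52 passed the filter. None of the 52 rose and 2 fell, NDUFV2 and ABCE1, which is 3.85% against 7.86% of all features. The log2 change was positive for 22 and negative for 30, with a median of -0.07.

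Other mitochondrial assembly genes held 11 tested of 14, none of which passed in limma (3 had an unadjusted p under 0.05), with a median of -0.06. The smallest p belonged to HSPA9, the mitochondrial HSP70 that works with HSCB, at -0.31 ± 0.09 on the log2 scale (limma adjusted p = 0.084). The mitochondrial iron importers mitoferrin 1 (SLC25A37) and mitoferrin 2 (SLC25A28) had log2 changes of -0.27 ± 0.08 (adjusted p = 0.0911) and 0.21 ± 0.08 (0.157), and SLC25A37 was at -0.53 (0.101) after background subtraction. NFU1, which carries clusters to late targets, was at -0.19 ± 0.09 (0.212).

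Other cytosolic assembly genes held 9 tested of 11, none of which passed in limma (1 had an unadjusted p under 0.05), with a median of -0.13. MMS19, the partner of CIAO1 and CIAO2B, had log2 changes of -0.22 (BCP1), -0.42 (BCBL1) and -0.33 (BC1), with a mean of -0.32 ± 0.09 (limma adjusted p = 0.0632). Its adjusted p was 0.182 without BCP1, 0.337 without BCBL1 and 0.0036 without BC1. The second MMS19 probe gave -0.22 (limma adjusted p = 0.137). GLRX3, a cytosolic glutaredoxin, was at -0.21 ± 0.10 (0.238), CIAPIN1, an electron carrier of the cytosolic pathway, at -0.21 ± 0.12 (0.326), and the scaffold NUBP1 at -0.14 ± 0.08 (0.331). BC1 decided the first 2 of these values, which without it were -0.09 for GLRX3 and -0.03 for CIAPIN1. The second GLRX3 probe gave -0.14 over the 3 lines (limma adjusted p = 0.448).

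Of the mitochondrial proteins that carry a cluster, 11 of 15 were tested, 1 fell and none rose, with a median of -0.08. NDUFV2, a subunit of respiratory complex I, fell from 4159 to 2928.5 in BCP1, from 3919 to 3263 in BCBL1 and from 3994 to 2870.4 in BC1. All 3-AP arrays lay below the vehicle arrays, and the fall was 1.33-fold, or -0.42 ± 0.09 on the log2 scale (limma adjusted p = 0.0376). The call was lost without BCP1 (0.201), without BCBL1 (0.0774) and after background subtraction (0.145), and held without BC1 (0.000328). CISD3 was at -0.27 ± 0.08 (0.0873), and at -0.85 (0.069) after background subtraction. Its probe was dim, with signals of 141.9 to 192.3, and was detected on 3 of the 4 arrays of BCBL1 and BC1. The size of its change thus depends on the background step. The lipoyl synthase LIAS was at -0.24 ± 0.08 (0.113), with -0.11 (0.556) on its second probe. The tRNA-modifying CDK5RAP1 was at -0.23 ± 0.08 (0.133).

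Of the cytosolic and nuclear proteins that carry a cluster, 21 of 24 were tested, 1 fell and none rose, with a median of -0.04. ABCE1, which splits ribosomes after translation ends, fell from 2404 to 1754 in BCP1, from 2231 to 1801 in BCBL1 and from 3207 to 2029.7 in BC1. The 3-AP arrays all lay below the vehicle arrays. The average fall was 1.39-fold, or -0.47 ± 0.10 on the log2 scale (limma adjusted p = 0.0317), and the second probe gave -0.42 (0.0557). That call too was lost without BCP1 (0.143), without BCBL1 (0.0522) and after background subtraction (0.13), and held without BC1 (0.000373). PPAT, an early enzyme of purine synthesis, was at -0.40 ± 0.12 (0.0746). The diphthamide synthesis gene DPH2 was at -0.36 ± 0.14 (0.153), with -0.08 on its second probe, and TYW1, a tRNA-modifying enzyme, at -0.19 ± 0.09 (0.211). Without BC1 the log2 change was -0.14 for DPH2 and -0.25 for PPAT.

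**Figure D4:**
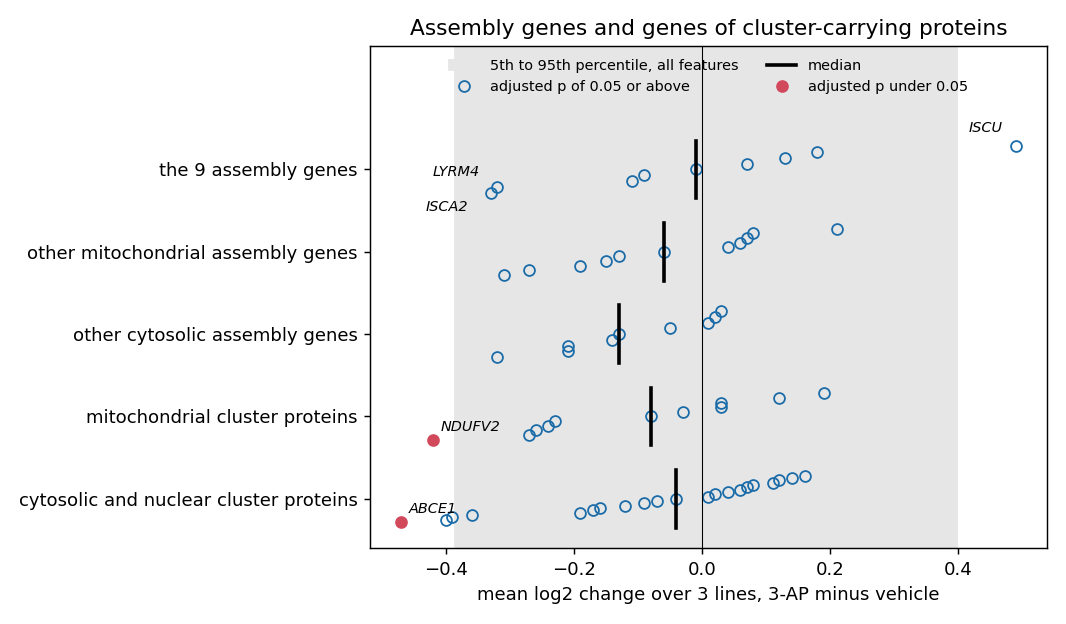
Mean log2 change over 3 lines of the 9 assembly genes and of the 52 tested genes of the 4 lists, 1 circle per gene, with the median of each list as a black bar. The grey band runs from the 5th to the 95th percentile of all 14627 features. Filled red circles, NDUFV2 and ABCE1, are the genes with a limma adjusted p under 0.05.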

How the data were processed

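The deposited processed table holds 1 linear signal intensity per probe and array, and a second deposited table holds non-normalized intensity and a detection p-value, per the file headers. How the authors subtracted background or normalized is not stated in the labels or headers. Vehicle and 3-AP values of a line have nearly equal distributions (sorted log2 values differ by at most 0.0136 at the 99th percentile). In the non-normalized table the BCP1 columns equal the processed BCBL1 columns in 100% of probes, so its signals and p-values were used for BCBL1 and BC1 only. For that reason log2 of the processed intensity, with no further background step, was the main setting. Background subtraction (limma nec, offset 16), with BCP1 p-values set by rank, was an alternative. It was followed by quantile normalization over the 6 arrays, so values given after background subtraction hold both steps.

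Probes with a 0 (13) were left out, and a probe was kept if detected (p under 0.05, or the top 38.12% of signals in BCP1) on at least 3 arrays, which left 17988. The annotation named 1 gene for 30113 probes, several for 8 and none for 17202. Each gene was read from its brightest kept probe (mean log2), giving 10456 genes and 4171 unnamed probes. Tests used R 4.3.3 and limma 3.58.1 (lmFit and eBayes, 2-sided). The test of 3-AP had 2 residual and 5.47 prior degrees of freedom. The test of BC1 against the other lines had 1 residual and 885 prior, so its SE was nearly the same for each gene. The number of arrays limits the precision.

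Samples are paired by cell line, as labelled. Deviations of vehicle and 3-AP arrays from their group means correlated at 0.78 (BCP1), 0.82 (BCBL1) and 0.87 (BC1), against 0.61 and 0.62 when crossed between BCP1 and BCBL1. The members and lists were chosen with earlier results of these data known. Named are all 9 genes with every probe, of each list any gene past the threshold (at most 6) plus up to 4 with the smallest p, and the 5 genes nearest to the member with the smallest p.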

Additional observations from a re-analysis of the deposited data

Results flagged for a closer look

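The log2 change of ISCU with 3-AP was 0.84 larger in BC1 than in the other lines, by a test of the difference itself (limma adjusted p = 8.92e-06, with 15.4% of all features past the threshold). With background subtraction the call was lost (0.86, adjusted p = 0.231), and 0 of 14627 features passed, with 2607 at an unadjusted p under 0.05. The test rests on the gap between BCP1 and BCBL1, whose arrays were very alike, and each line has 1 array per condition. What sets BC1 apart was not tested.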

How the results depend on the processing

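Over 14 alternatives the mean log2 change of ISCU ran from 0.21 to 0.65 and never passed (limma adjusted p 0.0767 to 0.552), that of ISCA2 from -0.62 to -0.30 and that of LYRM4 from -0.53 to -0.25. Of the 9 genes, 0 passed in the main setting, 1 without a filter on dim probes, 1 with cell line as a random block and 0 to 2 on leaving out 1 line, where 2 of the 9 passed without BC1, a setting in which 3879 features, or 26.5%, passed. Without BC1 the change of GLRX5 turned to 0.02, from -0.09 over all lines, and leaving out 1 line gave -0.16 to 0.02. Without BC1, HSCB had 0.01, ISCA1 -0.03 and CIAO1 0.11. Counting second probes only in the mean over probes, no member passed under the other 11 of the 14 alternatives. The second NFS1 probe, outside that count, passed where each kept probe was a feature (limma adjusted p = 0.0316). The count over all features was 1150 (52.1% of them higher), and 93 without BCP1, 522 without BCBL1 and 3879 without BC1. It was 51 with background subtraction (72.5% higher). From the non-normalized signals of BCBL1 and BC1, after background subtraction and quantile normalization of their own, it was 21 (90.5% higher). With BCP1 and BCBL1 averaged as 1 pair, a setting chosen after seeing the data, it was 59 (74.6% higher). With no replicate block, which ignores the pairing by line, it was 12 (91.7% higher), with 0 of the 9 genes. The second NFS1 probe lost its call there (adjusted p = 0.232), as did NDUFV2 (0.257) and ABCE1 (0.393). The count of BC1 differences, 2252, went to 0 with background subtraction (2607 at an unadjusted p under 0.05), and leaving out a line leaves that comparison no residual degree of freedom. Line differences numbered 4167, and 635 to 3875 on leaving out 1 line. The cause of these shifts was not tested. After background subtraction the changes of ISCA2, LYRM4, SLC25A37, CISD3, ALYREF and ITGA8 and of the second NFS1 probe were over 1.5 times as large.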

Other observations

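Among the 52 tested genes of the 4 lists, 9 passed the test of BC1 against the other lines (limma adjusted p under 0.05), which is 17.3% against 15.4% of all features. The lowest p belonged to NTHL1, a DNA glycosylase of base excision repair, with a log2 change of -1.01 in BC1 against -0.15 (BCP1) and -0.02 (BCBL1), a difference of -0.93 (limma adjusted p = 5.15e-07). The differences of POLA1, DPH2, BOLA3, CISD1, CIAPIN1 and PPAT ran from -0.66 to -0.48, and those of BOLA1 and ETFDH were 0.44 and 0.47. With background subtraction 0 features passed this test, with 2607 at an unadjusted p under 0.05. Each value is 1 array pair against 2.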
